A study of Mus musculus with 6 samples.

Results

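*Ifi27l2a* and 8 other interferon-stimulated genes, *Ifi27*, *Ifit1*, *Ifit3*, *Irf7*, *Isg15*, *Bst2*, *Oasl2*, and *Xaf1*, were followed in the LVs (left ventricles) of *Lztr1* R409C/+ mice. The 9 genes were selected by name out of 56923 genes in the count table, with earlier results from these same 6 mice known. Their differences between genotypes are therefore given as descriptions, with no test and no call. The question was whether *Ifi27l2a* was higher together with the other interferon-stimulated genes or without them. All 9 genes had enough reads to be fitted, among 17212 genes that had.

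Bulk mRNA-Seq had been performed on 12-week-old mice, 3 *Lztr1* R409C/+ and 3 WT, each sequenced as 1 library. The *Lztr1* R409C/+ mice are heterozygous for a CRISPR/Cas9 knock-in of a missense change in *Lztr1*, which encodes an adaptor for the ubiquitination of RAS proteins, and the WT mice carry no knock-in. Both genotypes were male mice backcrossed to C57BL/6J, received no agent, and had their hearts perfused with PBS before the LVs were taken. The sample labels name only the heart and mutant or wild-type mice, and the allele, the chamber, and the sex come from the study's methods. The knock-in is in the germline and thus in every cell type of the ventricle.

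Interferons bind receptors that signal through JAK kinases to transcription factors, and these then bind response elements in the promoters of interferon-stimulated genes. Many of the induced proteins restrain virus replication, and others, such as IRF7, strengthen interferon production itself. In the heart, cardiomyocytes, endothelial cells, fibroblasts, and macrophages can all respond to interferon, and a bulk library does not tell which of them holds a transcript. A higher level in bulk RNA cannot be divided into more cells of a type and more RNA per cell.

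The libraries held 66130887 to 72641124 counts, and 3 counts corresponded to 0.0317 to 0.0541 CPM (counts relative to the TMM-scaled library size). The share of counts from mitochondrially encoded genes was 13.8% for WT replicate 3 and 45.4% for *Lztr1* R409C/+ replicate 1, with 29.7% to 37.3% in the other libraries. The summed level of 7 cardiomyocyte markers was 39178 to 42706 CPM in WT and 29405 to 41188 CPM in *Lztr1* R409C/+ mice, so all libraries carried the labelled tissue. *Lztr1* itself measured 24.2, 24.2, and 22.2 CPM in WT replicates 1, 2, and 3 and 23.9, 27.9, and 25.3 CPM in *Lztr1* R409C/+ replicates. A count of reads per gene does not check a missense allele.

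*Ifi27l2a* encodes a small hydrophobic membrane protein of the interferon-inducible Ifi27 family. It lies on chromosome 12 of GRCm39, from 103399975 to 103409950 on the minus strand (ENSMUSG00000079017.4), with exons that cover 1085 bases. Its level was 2.66, 2.41, and 1.69 CPM in WT replicates 1, 2, and 3 and 12.7, 9.76, and 12.0 CPM in *Lztr1* R409C/+ replicates 1, 2, and 3. Every *Lztr1* R409C/+ mouse lay far above every WT mouse. The counts behind these levels were 176, 155, and 160 for WT against 704, 698, and 871 for *Lztr1* R409C/+ replicates. The mean was 2.25 ± 0.505 CPM in WT (SD, n = 3) and 11.5 ± 1.54 CPM in *Lztr1* R409C/+ mice (SD, n = 3), a 5.10-fold ratio. The fitted log2 fold change was 2.35 with a standard error of 0.23, whereas the SD between mice of 1 genotype was 0.28 on the log2 scale, close to the median of 0.29 over all genes fitted.

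*Irf7*, the transcription factor that drives transcription of interferon genes, was the member with the next largest difference. Its level was 6.76, 4.37, and 3.94 CPM in WT and 9.35, 12.5, and 13.4 CPM in *Lztr1* R409C/+ replicates. The groups did not overlap, and WT replicate 1 and *Lztr1* R409C/+ replicate 1 were the nearest to each other. The means of 5.02 ± 1.52 CPM in WT and 11.8 ± 2.14 CPM in *Lztr1* R409C/+ mice (SD, n = 3 each) gave a 2.34-fold ratio and a log2 fold change of 1.23 (standard error, 0.24). Without WT replicate 2, WT replicate 3, or *Lztr1* R409C/+ replicate 2, the log2 fold change of *Irf7* was 1.14, 1.08, or 1.18. That of *Isg15* was then larger, at 1.22, 1.13, or 1.24. *Irf7* (ENSMUSG00000025498.16) is on the minus strand of chromosome 7, from 140842619 to 140846398.

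*Isg15* encodes a ubiquitin-like protein that is attached to other proteins after interferon stimulation, and it had the lowest counts of the 9 genes. It measured 1.20, 1.26, and 1.11 CPM in WT and 1.93, 2.42, and 3.70 CPM in *Lztr1* R409C/+ replicates, from 79 to 105 counts in WT and 107 to 268 counts in *Lztr1* R409C/+ mice. The WT mice were close together and the *Lztr1* R409C/+ mice were spread out above them. The means were 1.19 ± 0.0753 and 2.68 ± 0.912 CPM (SD, n = 3 each), a 2.26-fold ratio, and the log2 fold change was 1.18 (standard error, 0.32). *Isg15* (ENSMUSG00000035692.8) is on the minus strand of chromosome 4, from 156283883 to 156285303.

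*Bst2* encodes tetherin, which holds budding virus particles at the cell surface. Its level was 9.88, 8.68, and 10.8 CPM in WT and 14.0, 17.7, and 19.8 CPM in *Lztr1* R409C/+ replicates, with no overlap. The ratio of the means was 1.75 and the log2 fold change was 0.81 (standard error, 0.18). *Bst2* (ENSMUSG00000046718.9) is on the minus strand of chromosome 8, from 71986895 to 71990114.

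*Ifit3* and *Ifit1* encode partner proteins that bind viral RNA, and both lie in a cluster on the plus strand of chromosome 19, *Ifit3* (ENSMUSG00000074896.4) from 34560899 to 34566443 and *Ifit1* (ENSMUSG00000034459.9) from 34618271 to 34632174. *Ifit3* measured 7.49, 5.28, and 6.17 CPM in WT and 8.09, 10.1, and 10.04 CPM in *Lztr1* R409C/+ replicates. *Ifit1* measured 7.49, 5.98, and 8.80 CPM in WT and 6.68, 12.9, and 9.05 CPM in *Lztr1* R409C/+ replicates. The genotypes did not overlap for *Ifit3* and did overlap for *Ifit1*, where *Lztr1* R409C/+ replicate 1 lay below 2 of the 3 WT mice. The log2 fold changes were 0.58 for *Ifit3* (standard error, 0.20) and 0.36 for *Ifit1* (standard error, 0.25).

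*Oasl2* encodes a protein of the oligoadenylate synthetase family of antiviral RNA sensors, and *Xaf1* a binding partner of the apoptosis inhibitor XIAP. *Oasl2* measured 9.34, 9.37, and 8.03 CPM in WT and 11.6, 13.7, and 12.0 CPM in *Lztr1* R409C/+ replicates, and it varied least between mice of 1 genotype, with an SD of 0.13 on the log2 scale. *Xaf1* measured 6.40, 8.45, and 5.18 CPM in WT and 10.3, 8.95, and 7.44 CPM in *Lztr1* R409C/+ replicates. The genotypes did not overlap for *Oasl2*, and for *Xaf1* they overlapped through WT replicate 2. The log2 fold change was 0.48 for *Oasl2* (standard error, 0.17) and 0.42 for *Xaf1* (standard error, 0.23). Both are on plus strands, *Oasl2* (ENSMUSG00000029561.18) on chromosome 5 from 115034997 to 115050295 and *Xaf1* (ENSMUSG00000040483.16) on chromosome 11 from 72192397 to 72204559.

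*Ifi27* (ENSMUSG00000064215.14) had the smallest difference of the 9 genes in the fit of all 6 mice with no covariate. This family relative of *Ifi27l2a* overlaps it on the plus strand of chromosome 12, from 103392254 to 103407799. It measured 12.4, 14.8, and 19.3 CPM in WT and 20.3, 19.2, and 18.2 CPM in *Lztr1* R409C/+ replicates. WT replicate 3 lay above 2 of the 3 *Lztr1* R409C/+ mice, and the log2 fold change was 0.31 (standard error, 0.19). *Ifit1* had the smaller value without WT replicate 2 (0.22 against 0.27) or *Lztr1* R409C/+ replicate 2 (0.08 against 0.30). *Xaf1* had the smaller value without WT replicate 3 (0.26 against 0.50). *Ifi27l2b*, another gene of the family, was seen in 6, 0, and 0 reads of WT replicates against 6, 9, and 7 reads of *Lztr1* R409C/+ replicates and was too low to be fitted.

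**Figure D1:**
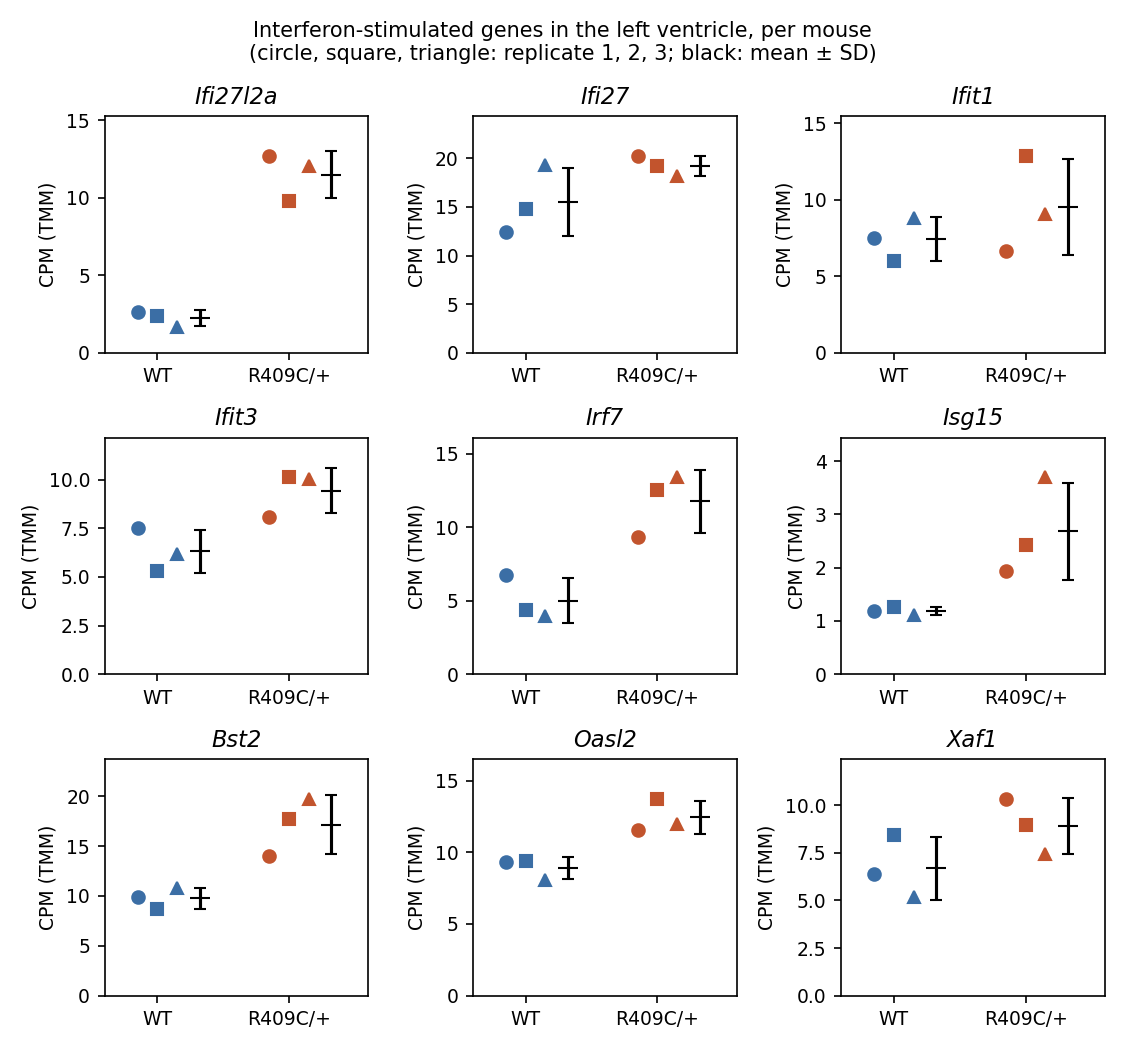
CPM (counts relative to the TMM-scaled library size) of the 9 genes in each of 3 WT and 3 *Lztr1* R409C/+ mice, with circles, squares, and triangles for replicates 1, 2, and 3 and black bars for the mean ± SD. *Ifi27l2a* shows the widest gap, from 2.66 CPM in the highest WT mouse to 9.76 CPM in the lowest *Lztr1* R409C/+ mouse, whereas *Ifi27*, *Ifit1*, and *Xaf1* overlap.

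All 9 genes thus had log2 fold changes above 0, where 51.4% of all genes fitted did. In 6 of the 9, every *Lztr1* R409C/+ mouse lay above every WT mouse, which held for 8.30% of all genes, and the reverse, which held for 7.23% of all genes, was seen in none of the 9. The genes were picked on this contrast, so nothing is read from these counts. With scaling by library size alone, which lowers the median log2 fold change of all genes by 0.16, every *Lztr1* R409C/+ mouse lay above every WT mouse in 4 of the 9, *Ifi27l2a*, *Irf7*, *Isg15*, and *Xaf1*, a separation in this direction that 3.62% of all genes showed.

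The median log2 fold change was 0.58 for the 9 genes and 0.53 for the 8 without *Ifi27l2a*, beside 0.012 for all genes. The 8 ranged from 0.31 to 1.23. *Ifi27l2a* was 1.12 log2 units above the highest of them, and this gap was between 0.78 and 1.21 in the 15 alternative fits. All 9 log2 fold changes were above 0 in each of the 15 alternative fits. Among the 8, *Ifi27*, *Ifit1*, and *Xaf1* overlapped between genotypes, and their values moved by over 1.5 times when 1 mouse was left out. The log2 fold change of *Ifi27* was 0.17 without WT replicate 1 and 0.50 without WT replicate 3. That of *Ifit1* was 0.08 without *Lztr1* R409C/+ replicate 2, 0.22 without WT replicate 2, and 0.55 without *Lztr1* R409C/+ replicate 1. That of *Xaf1* was 0.26 without WT replicate 3. None of these values was below 0.

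**Figure D2:**
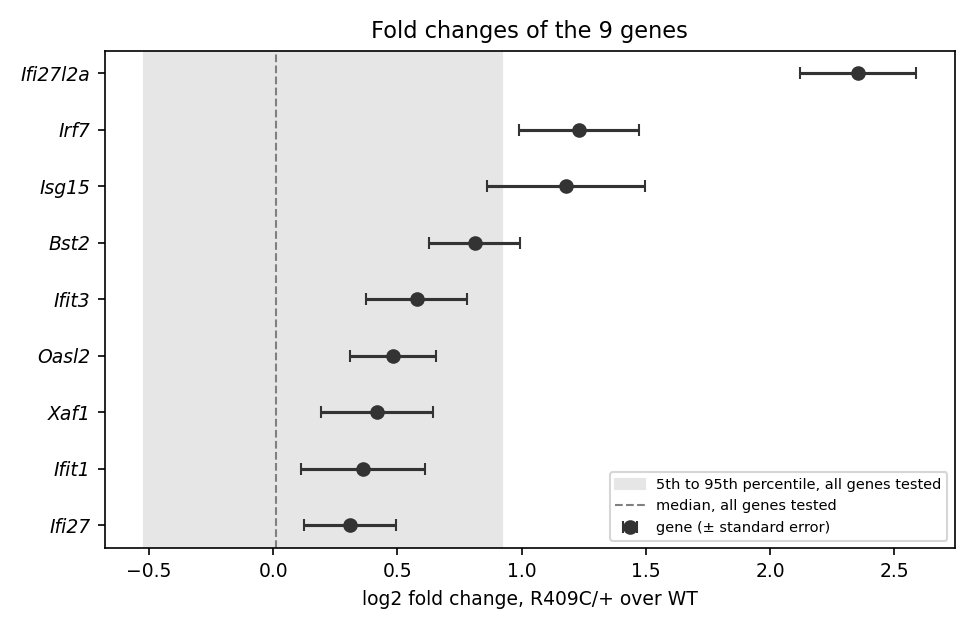
Log2 fold change of *Lztr1* R409C/+ over WT mice for each of the 9 genes, with bars for the standard error, the dashed line for the median of all 17212 genes (0.012), and the grey band from their 5th to 95th percentile (-0.52 to 0.92). *Ifi27l2a* (2.35), *Irf7* (1.23), and *Isg15* (1.18) lie to the right of the band, and the other 6 genes lie inside it.

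The 2 measures were also set against each other in each mouse. The geometric mean of the other 8 genes was 6.24 ± 0.260 CPM in WT and 9.94 ± 1.08 CPM in *Lztr1* R409C/+ mice (SD, n = 3 each), a 1.59-fold ratio with no overlap. *Ifi27l2a* divided by that mean was 0.408, 0.399, and 0.275 for WT replicates, against 1.46, 0.917, and 1.15 for *Lztr1* R409C/+ replicates, and its average was 3.26-fold higher in *Lztr1* R409C/+ mice. The genotypes did not overlap in this ratio. Relative to *Irf7* alone it went from 0.458 ± 0.0829 in WT to 1.01 ± 0.307 in *Lztr1* R409C/+ mice, also with no overlap.

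Within a genotype, the order of the mice differed between the genes. *Lztr1* R409C/+ replicate 1 had the highest level of its genotype for *Ifi27l2a*, *Ifi27*, and *Xaf1* and the lowest for *Ifit1*, *Ifit3*, *Irf7*, *Isg15*, *Bst2*, and *Oasl2*. This was also the library with the largest share of mitochondrially encoded counts, and the part of that share in the order of the mice was not tested. Among WT mice, replicate 3 was the lowest for *Ifi27l2a*, *Irf7*, *Isg15*, *Oasl2*, and *Xaf1* and the highest for *Ifi27*, *Ifit1*, and *Bst2*. Without both of these libraries the log2 fold change of *Ifi27l2a* was 2.10 and the median of the other 8 genes was 0.68.

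Levels were compared between genes per kilobase of exon. In WT mice *Bst2* was the highest at 8.06 ± 0.865 CPM per kilobase, followed by *Ifi27* at 3.48 ± 0.781, *Ifit3* at 2.19 ± 0.386, and *Ifi27l2a* at 2.08 ± 0.466 (SD, n = 3). The remaining genes followed from *Isg15* at 1.52 through *Xaf1*, *Oasl2*, and *Irf7* to *Ifit1* at 1.001. From *Ifit3* downward each gene overlapped the next in this order. In *Lztr1* R409C/+ mice *Ifi27l2a* took the second place at 10.6 ± 1.42 CPM per kilobase, behind *Bst2* at 14.1 ± 2.42 with an overlap and ahead of *Ifi27* at 4.31 ± 0.230 with none. *Isg15* at 3.43, *Ifit3* at 3.27, and *Irf7* at 3.11 overlapped in turn, and *Oasl2* at 1.95, *Xaf1* at 1.88, and *Ifit1* at 1.28 CPM per kilobase formed the lower end.

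Some reads of these genes cannot be assigned with certainty. Some exons overlap a gene on the other strand, and whether counting used strand is not given in the sources used here. *Ifit3* and *Ifit3b*, both on the plus strand, also share sequence, which strand does not resolve. *Ifi27l2a* and *Ifi27* lie on opposite strands and share 163 exon bases, 15.02% of the exon bases of *Ifi27l2a* and 3.65% of those of *Ifi27*. *Isg15* shares 31.1% of its exon bases with *Gm46878* on the other strand, which had 2 counts in WT replicate 2 and 0 in the other 5 libraries. *Irf7* shares 63 exon bases, 1.67% of its own, with *Phrf1* on the other strand, which had 713 to 1645 counts per library. Of 75-base windows in *Ifit3* transcripts, 23.5% occur also in *Ifit3b*. Of those in *Ifi27l2a* transcripts, 5.62% occur in *Ifi27* and none in *Ifi27l2b*, and none of those in *Irf7*, *Bst2*, or *Oasl2* transcripts occur in another gene.

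The promoters of the interferon-stimulated genes are printed to show where the core of the interferon response element occurs among these genes. RefSeq promoter sequences, from 250 bases before to 50 bases after the gene start and listed for GRCm38.p6, were found for 7 of the 9 genes, and each was located at exactly 1 place in GRCm39. The list had no entry for *Ifi27l2a* or *Ifi27*. The core of the response element was searched as GAAANNGAAA on both strands in the 250 bases before the start, allowing matches to overlap. Stretches around the matches follow from 5′ to 3′ on the strand of the gene, with the matches in capitals and GRCm39 positions.
*Bst2*, chr8:71990201-71990276, minus strand: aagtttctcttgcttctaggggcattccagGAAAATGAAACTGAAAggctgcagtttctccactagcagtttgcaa
*Ifit1*, chr19:34618155-34618243, plus strand: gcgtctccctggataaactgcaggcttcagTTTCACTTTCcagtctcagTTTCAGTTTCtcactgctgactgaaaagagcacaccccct
*Ifit3*, chr19:34560743-34560846, plus strand: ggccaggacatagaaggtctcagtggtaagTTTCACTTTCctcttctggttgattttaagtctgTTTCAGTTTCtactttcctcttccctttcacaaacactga
*Isg15*, chr4:156285302-156285383, minus strand: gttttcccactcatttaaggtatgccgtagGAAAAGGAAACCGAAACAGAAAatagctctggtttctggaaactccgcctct

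Distances are counted from the RefSeq start, which lies 18, 30, and 28 bases inside the GENCODE end given above for *Ifit1*, *Ifit3*, and *Isg15* and within a few bases of it for *Bst2*. In *Bst2* the overlapping matches began 130 and 124 bases before the start, and in *Isg15* a run of 3 overlapping matches began 78, 72, and 66 bases before it. In *Ifit1* the matches began 104 and 85 bases before the start and in *Ifit3* 156 and 122 bases before it, all of them on the opposite strand. The 2 genes of the *Ifit* cluster share the same pair of 10-base matches in the same order. Of all 32851 promoters in the list, 2.98% held the motif, compared with 4 of 7 members and 23 of 79 promoters (29.1%) of a broader list of interferon-stimulated effectors. No match was found for *Irf7*, *Oasl2*, or *Xaf1*, which says only that these letters are not in this window. The log2 fold changes were 1.18 (*Isg15*), 0.81 (*Bst2*), 0.58 (*Ifit3*), and 0.36 (*Ifit1*) with a match and 1.23 (*Irf7*), 0.48 (*Oasl2*), and 0.42 (*Xaf1*) without one.

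The remaining interferon pathway was then examined through 6 lists of 149 genes, named by role, and *Ifi27l2b*. None of the 127 genes that could be fitted passed an adjusted p of 0.05 by edgeR's quasi-likelihood test, where 0.0349% of all genes were higher and 0.00581% lower. At an unadjusted p under 0.05, 29 were higher and 1 was lower, where 5.77% of all genes were higher and 2.86% lower. DESeq2 called 6 of them higher, *Zbp1*, *Ifitm3*, *Phf11b*, *Ifi209*, *Irf5*, and *Irf8*, where it called 0.790% of all genes higher. Of the 127 genes, 107 had log2 fold changes above 0, beside 51.4% of all genes, and the median was 0.26. With scaling by library size alone, 83 were above 0, beside 34.5% of all genes, and the median was 0.09. In that fit, 11 were higher at an unadjusted p under 0.05, beside 2.25% of all genes. Without *Lztr1* R409C/+ replicate 2, 19 were higher at an unadjusted p under 0.05, beside 5.19% of all genes.

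Interferon ligands had few or no counts in the libraries. Of 20 ligand genes, including *Ifng* and the interferon alpha genes, 19 had 0 counts in all 6 mice. The exception was *Ifnb1*, with 0.0466 CPM in WT replicate 2 and 0 counts in the other mice. A count of 0 allows a level of up to 0.0317 to 0.0541 CPM, depending on the library, so the other 19 ligands were not detectable at this depth.

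Of 17 receptors and signaling genes, 13 had log2 fold changes above 0, with a median of 0.16, and in 5 of the 17 all *Lztr1* R409C/+ mice lay above all WT mice, beside 8.30% of all genes. With scaling by library size alone, 8 were above 0 and the median was -0.01. The receptor gene *Ifnar1* measured 21.8, 27.6, and 18.9 CPM in WT and 24.3, 23.6, and 20.7 CPM in *Lztr1* R409C/+ replicates, with full overlap. The genes with the smallest p on the higher side were *Irf5* and *Irf8*, interferon regulatory factors known best from myeloid cells. *Irf5* measured 1.88, 2.39, and 1.94 CPM in WT and 5.22, 4.59, and 5.59 CPM in *Lztr1* R409C/+ replicates (log2 fold change, 1.31; standard error, 0.24; edgeR adjusted p = 0.127). *Irf8* had a log2 fold change of 1.18 (standard error, 0.28; edgeR adjusted p = 0.215). On the lower side, *Jak1*, the kinase bound to interferon receptors, measured 165.8, 159.8, and 162.0 CPM in WT and 109.3, 142.7, and 127.3 CPM in *Lztr1* R409C/+ replicates (log2 fold change, -0.36; standard error, 0.16; edgeR adjusted p = 0.555). *Jak2* had a log2 fold change of -0.22 (standard error, 0.17; edgeR adjusted p = 0.763), which was -0.08 without *Lztr1* R409C/+ replicate 3 and -0.34 without *Lztr1* R409C/+ replicate 1.

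Of 69 fitted interferon-stimulated effectors other than the 9 genes, 61 had log2 fold changes above 0, with a median of 0.28, and 18 were higher, beside 5.77% of all genes, and none lower at an unadjusted p under 0.05. The 18 became 11 without WT replicate 1, beside 5.09% of all genes, and 7 with scaling by library size alone, beside 2.25% of all genes. In 22 of the 69, all *Lztr1* R409C/+ mice lay above all WT mice, beside 8.30% of all genes. With scaling by library size alone, 48 were above 0 and the median was 0.14. *Zbp1*, a sensor of Z-form nucleic acids, measured 0.636, 0.652, and 0.792 CPM in WT and 1.48, 2.07, and 2.41 CPM in *Lztr1* R409C/+ replicates (log2 fold change, 1.52; edgeR adjusted p = 0.215). *Ifitm3*, which blocks virus entry from endosomes, was more abundant, with 31.0, 38.6, and 29.4 CPM in WT and 48.6, 65.99, and 50.4 CPM in *Lztr1* R409C/+ replicates (log2 fold change, 0.74; edgeR adjusted p = 0.219). Both separated the genotypes in every mouse, and neither passed the threshold over all genes by edgeR, whereas both passed it by DESeq2. The effectors with the smallest p on the lower side were *Mov10*, an RNA helicase, with a log2 fold change of -0.25 (edgeR adjusted p = 0.789), and *Dtx3l*, a ubiquitin ligase, with -0.18 (edgeR adjusted p = 0.802). Without *Lztr1* R409C/+ replicate 1 they were -0.13 and -0.10, *Mov10* was -0.40 without *Lztr1* R409C/+ replicate 3, and *Dtx3l* was -0.29 without *Lztr1* R409C/+ replicate 2.

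Only 1 fitted gene of these lists had a larger log2 fold change than *Ifi27l2a*. This gene, *Ms4a4c*, was singled out after its values were seen. It measured 0.227, 0, and 0 CPM in WT and 0.722, 0.420, and 0.373 CPM in *Lztr1* R409C/+ replicates, so its log2 fold change of 2.76 (standard error, 1.16; edgeR adjusted p = 0.551) rested on few reads.

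Of 8 inhibitors of the pathway, 4 had log2 fold changes above 0. The phosphatase gene *Ptpn6*, known best from blood cells, measured 2.30, 2.55, and 1.09 CPM in WT and 3.90, 3.47, and 3.70 CPM in *Lztr1* R409C/+ replicates (log2 fold change, 0.90; edgeR adjusted p = 0.470). The feedback inhibitor *Socs3* had a log2 fold change of 0.41 (edgeR adjusted p = 0.752), *Pias1* -0.27 (edgeR adjusted p = 0.692), and *Irf2bp2* -0.09 (edgeR adjusted p = 0.914). Single mice moved these values: *Ptpn6* was 0.60 without WT replicate 3, *Socs3* 0.16 and *Pias1* -0.14 without *Lztr1* R409C/+ replicate 3, and *Irf2bp2* was on either side of 0. *Usp18*, which removes ISG15 from proteins and blocks receptor signaling, measured 3.16, 2.84, and 3.10 CPM in WT and 2.65, 4.59, and 3.92 CPM in *Lztr1* R409C/+ replicates, with overlap.

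Of 16 sensors of nucleic acids and their adaptors, 13 had log2 fold changes above 0, with a median of 0.26. Scaling by library size alone left 8 above 0 and a median of 0.12. At an unadjusted p under 0.05 by edgeR, 5 were higher, beside 5.77% of all genes. With library size alone this number was 0, beside 2.25% of all genes. *Unc93b1*, which carries Toll-like receptors to endosomes, had a log2 fold change of 0.63 (edgeR adjusted p = 0.317), and *Aim2*, a sensor of DNA in the cytosol, 0.996 (edgeR adjusted p = 0.455). *Aim2* measured 0.757, 0.917, and 1.08 CPM in WT and 2.33, 1.82, and 1.37 CPM in *Lztr1* R409C/+ replicates, with no overlap. The kinase genes *Tbk1* and *Ikbke*, which activate interferon regulatory factors, had values near 0, at -0.02 (edgeR adjusted p = 0.980) and -0.05 (edgeR adjusted p = 0.981).

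Of 17 fitted targets of interferon gamma, 16 had log2 fold changes above 0, with a median of 0.21. Scaling by library size alone left 15 above 0 and a median of 0.08. In 3 of the 17 all *Lztr1* R409C/+ mice lay above all WT mice, beside 8.30% of all genes. At an unadjusted p under 0.05 by edgeR, 1 of the 17 was higher, beside 5.77% of all genes. *Ciita*, the switch for MHC class II genes, had a log2 fold change of 0.76 (edgeR adjusted p = 0.555), and the chemokine gene *Cxcl9* 1.01 (edgeR adjusted p = 0.587). *Cxcl9* measured 5.96, 6.88, and 1.48 CPM in WT and 9.89, 10.9, and 7.97 CPM in *Lztr1* R409C/+ replicates, and its log2 fold change was 0.58 without WT replicate 3, the lowest mouse. *Cd274*, which encodes the checkpoint ligand PD-L1, was the exception, with a log2 fold change of -0.41 (edgeR adjusted p = 0.599).

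**Figure D3:**
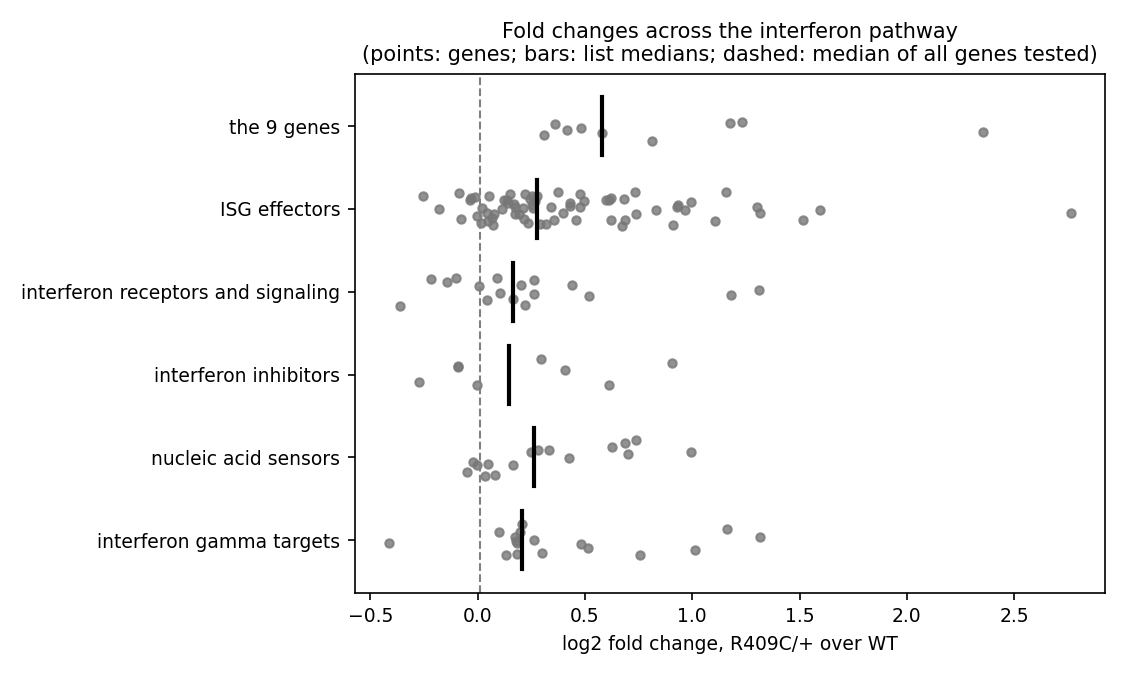
Log2 fold change of *Lztr1* R409C/+ over WT mice for the 9 genes and for the fitted genes of 5 other interferon pathway lists, with 1 point per gene, a bar at each list's median, and a dashed line at the median of all genes (0.012). The list medians lie between 0.14 and 0.28, below the median of 0.58 of the 9 genes, and the point of *Ms4a4c* at 2.76 is the single one to the right of *Ifi27l2a*.

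The genes whose profile over the 6 mice was most like that of *Ifi27l2a* were looked up among 9775 genes with a mean of at least 5 CPM, by the root mean square difference of log2 CPM after centring each gene on its own mean. The closest was *Fcgr3*, an Fc receptor gene, with a difference of 0.48 log2 units. It was followed by the chemokine gene *Ccl6* (0.51), the actin regulator gene *Cotl1* (0.57), *Fcer1g*, the signaling chain of Fc receptors (0.57), and the growth factor gene *Igf2* (0.59). *Fcgr3* measured 7.70, 6.39, and 4.07 CPM in WT and 18.0, 15.01, and 14.7 CPM in *Lztr1* R409C/+ replicates, and like *Ifi27l2a* it was lowest in WT replicate 3 and highest in *Lztr1* R409C/+ replicate 1. Of the members, *Irf7* ranked 9 with a difference of 0.62, *Bst2* 109, *Ifit3* 253, *Oasl2* 355, *Xaf1* 462, *Ifi27* 1261, and *Ifit1* 2052, and *Isg15* lay below 5 CPM. The difference between genotypes stays in this measure, so the ranks in large part restate the log2 fold changes. The measure describes these 6 mice and carries no test.

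Markers of macrophages were also higher in *Lztr1* R409C/+ mice. All 10 macrophage markers, *Csf1r*, *Adgre1*, *Cd68*, *Mrc1*, *C1qa*, *C1qb*, *C1qc*, *Fcgr1*, *Cx3cr1*, and *Lyz2*, separated the genotypes, with each *Lztr1* R409C/+ mouse above all WT mice, beside 8.30% of all genes. Their summed level was 213.9 to 240.5 CPM in WT and 362.8 to 472.5 CPM in *Lztr1* R409C/+ mice, a 1.80-fold ratio of the means. *Ifi27l2a* per 100 CPM of these markers was 1.25, 1.07, and 0.702 for WT replicates, against 2.69, 2.69, and 3.11 for *Lztr1* R409C/+ replicates, with a 2.81-fold ratio of the means and no overlap. The geometric mean of the other 8 genes per 100 CPM of these markers was 3.05, 2.69, and 2.56 for WT replicates, against 1.84, 2.94, and 2.71 for *Lztr1* R409C/+ replicates, with overlap. The ratio for *Ifi27l2a* separated the genotypes and that for the other 8 genes did not.

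The sum is weighted toward *Lyz2*, so the geometric mean of the 10 markers was used as well. *Ifi27l2a* relative to it was 0.212 ± 0.0282 in WT and 0.511 ± 0.0388 in *Lztr1* R409C/+ mice (SD, n = 3 each), with no overlap. The other 8 genes relative to it were 0.600 ± 0.0885 in WT and 0.446 ± 0.0690 in *Lztr1* R409C/+ mice, with overlap. *Irf7* per 100 CPM of the markers also overlapped, at 2.25 ± 0.807 in WT and 2.97 ± 0.856 in *Lztr1* R409C/+ mice. The part of macrophage content in the levels of the 9 genes was not tested.

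**Figure D4:**
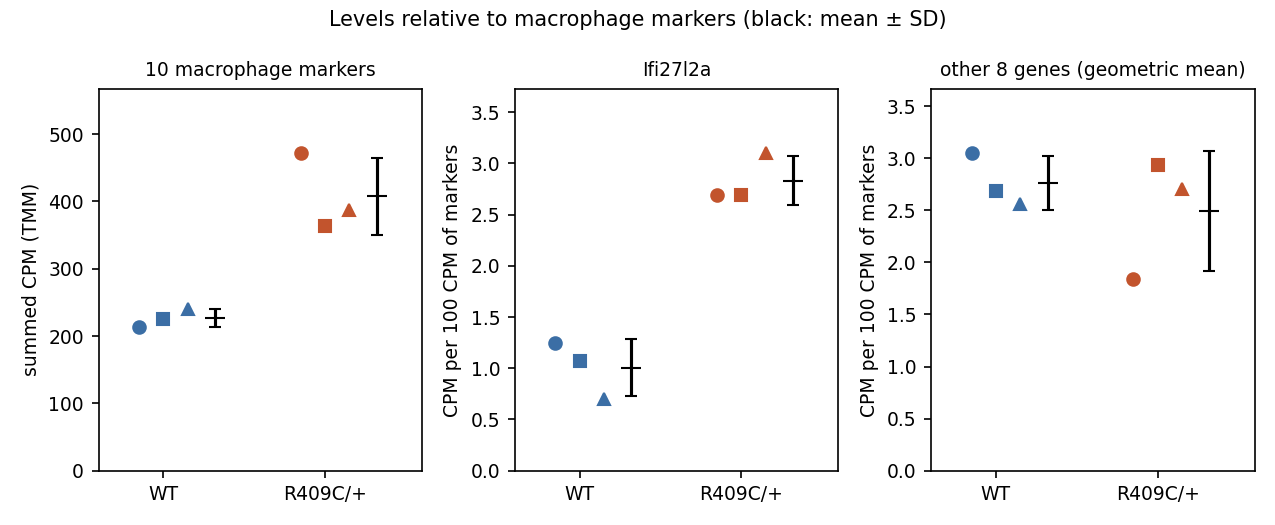
Summed CPM of 10 macrophage markers (left), *Ifi27l2a* per 100 CPM of these markers (middle), and the geometric mean of the other 8 genes per 100 CPM of these markers (right) in 3 WT and 3 *Lztr1* R409C/+ mice, with circles, squares, and triangles for replicates 1, 2, and 3 and black bars for the mean ± SD. *Ifi27l2a* per 100 CPM lies at 0.702 to 1.25 in WT and 2.69 to 3.11 in *Lztr1* R409C/+ mice, whereas the other 8 genes overlap.

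Markers of other cell types were then summed in the same way, and their counts stand beside 8.30% of all genes with every *Lztr1* R409C/+ mouse above all WT mice and 7.23% with every one below. Of 6 monocyte markers, 3 were higher in every *Lztr1* R409C/+ mouse and *Chil3* was at 0 in all mice. The summed level was 34.9 to 50.4 CPM in WT and 43.7 to 68.2 CPM in *Lztr1* R409C/+ mice. Of the 5 fitted monocyte markers, 4 had log2 fold changes above 0 and 1 below, beside 51.4% of all genes above 0. Their median was 1.52, beside 1.17 for the 10 macrophage markers. The summed levels of 6 neutrophil markers were 0.433 to 0.979 CPM in WT and 1.03 to 1.48 CPM in *Lztr1* R409C/+ mice, with *Ly6g*, *Camp*, and *Ngp* at 0. Those of 4 B cell markers were 0.718 to 1.54 CPM and 1.76 to 3.10 CPM, and those of 6 T or NK cell markers 0.124 to 0.348 CPM and 0.812 to 1.33 CPM. These lymphoid and neutrophil sums were all higher in *Lztr1* R409C/+ mice, without overlap. They were low, as 3 counts corresponded to 0.0317 to 0.0541 CPM. Only 2 of 6 neutrophil and 2 of 6 T or NK cell markers had enough reads to be fitted. Of the single markers, 2 of 6 for neutrophils, 3 of 4 for B cells, and 2 of 6 for T or NK cells were higher in all *Lztr1* R409C/+ mice. Of 5 markers of plasmacytoid dendritic cells, which are known for their interferon production, 1 was higher and 1 lower in all *Lztr1* R409C/+ mice. *Klk1* and *Cd209d* were at 0, and the sums of 238.6 to 431.7 CPM in WT and 317.0 to 619.2 CPM in *Lztr1* R409C/+ mice overlapped. The 5 include *Cox6a2*, a cytochrome c oxidase gene that heart muscle also expresses, so these sums do not measure plasmacytoid dendritic cells. The sums of 7 endothelial markers, 1 of which was higher in all *Lztr1* R409C/+ mice, overlapped, with 541.7 to 705.5 CPM in WT and 473.0 to 764.5 CPM in *Lztr1* R409C/+ mice. The sums of 5 fibroblast markers, 2 of which were higher in all *Lztr1* R409C/+ mice, overlapped as well, with 528.1 to 618.4 CPM in WT and 588.1 to 653.8 CPM in *Lztr1* R409C/+ mice. Erythroid markers, 5 of 5 with a log2 fold change above 0, summed to 578.8 to 1479 CPM in WT and 1042 to 2625 CPM in *Lztr1* R409C/+ mice, a 1.94-fold ratio of the means with overlap. The sums of 4 atrial markers (38.1 to 76.6 CPM in WT and 53.5 to 107.04 CPM in *Lztr1* R409C/+ mice) and of 4 mural markers, 1 of which was lower in all *Lztr1* R409C/+ mice (629.1 to 740.5 CPM and 568.3 to 718.4 CPM) overlapped. Those of 3 adipocyte markers were near 0, with 0.148 to 0.249 CPM in WT and 0 to 0.0414 CPM in *Lztr1* R409C/+ mice. These adipocyte sums were lower in *Lztr1* R409C/+ mice, without overlap, and 1 of the 3 markers was lower in all of these mice. Of the 7 cardiomyocyte markers, 1 was also lower in all *Lztr1* R409C/+ mice. The part of these cell types in the levels of the 9 genes was not tested.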

How the data were processed

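Per the study's methods, RNA from PBS-perfused LVs was sequenced from NEBNext Ultra II libraries, and reads were trimmed (Trim Galore), aligned to GRCm39 (HISAT2), and assigned to genes (StringTie) with rRNA left out. What the authors deposited are raw, unnormalized counts for each gene. The annotation release and the way counts were taken from StringTie are not given in the sources used here. Columns of the authors' own edgeR comparison, deposited for 12629 genes as log2 fold changes, log2 CPM, p-values, and adjusted p-values, were not used, and only gene names were taken from that table. Genotypes and replicate numbers came from the sample labels.

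Genes were kept by filterByExpr (17212 of 56923), scaled by TMM, and tested with edgeR 4.0.16 (R 4.3.3; robust quasi-likelihood test, no covariate, two-sided, Benjamini-Hochberg adjustment over all genes, threshold 0.05). The script was tested on simulated data of 16734 genes. It recovered 50 of 96 genes changed by 1 log2 unit and 82 of 97 changed by 2 log2 units. Both sizes of change were in the same simulated data, where 17 unchanged genes were falsely called in total. CPM used TMM-scaled library sizes, exon lengths and positions came from GENCODE M39, which held 56236 of the gene identifiers, and log2 CPM for profiles used a prior count of 2. The depth of 66130887 to 72641124 counts per library sets the counting error only, and p-values measure the spread between 3 mice per genotype. Alternatives were other normalizations, DESeq2 1.42.0, other count filters, removal of mitochondrially encoded genes, a replicate block, and leaving out mice.

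The 9 members and all lists were chosen with earlier results of these data known. Named genes were the members, *Ifi27l2b*, *Lztr1*, the 2 tested genes of each pathway list with the smallest p in each direction plus any past the threshold, and the 5 genes most like *Ifi27l2a*. *Ifnar1*, *Usp18*, *Ifnb1*, *Ms4a4c*, and genes called only by DESeq2 were added after their values were seen. The values of 1 listed gene are not reported here.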

Additional observations from a re-analysis of the deposited data

How the results depend on the processing

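The log2 fold change of *Ifi27l2a* was 2.10 to 2.49 over 15 alternatives and 2.18 to 2.49 with each mouse left out, and the median of the other 8 genes was 0.39 (library size only) to 0.68. Of 510 alternative values for 34 single genes, 504 moved by less than the spread between replicates and none that had been called changed sign; *Irf2bp2*, *Tbk1*, *Ikbke*, and *Lztr1*, all uncalled, had values on both sides of 0. Numbers of called genes were less stable. Genes higher in *Lztr1* R409C/+ mice numbered 6, and 136 with DESeq2, 19 with no filter, 15 with library size only, 0 with the replicate block, and 1 to 3 with each mouse left out. Genes lower numbered 1, and 14 with DESeq2, 6 with library size only, 0 with at least 10 counts in every mouse, and 1 to 2 with each mouse left out. Of the 127 pathway genes, 0 were called, and 6 with DESeq2. Those higher at an unadjusted p under 0.05 numbered 29, and 11 with library size only and 19 (without *Lztr1* R409C/+ replicate 2) to 29 with each mouse left out. Leaving out WT replicate 3 and *Lztr1* R409C/+ replicate 1 together, an alternative chosen after seeing the data, left 0 genes called higher. The causes were not tested. The sample labels do not say what the replicate numbers stand for. Deviations of same-numbered mice correlated at -0.06 to 0.02, and 1 of 3 *Lztr1* R409C/+ and 0 of 3 WT mice correlated best with its own number. Whether same-numbered mice shared a litter or a preparation was not tested. With 3 mice per genotype, the fold changes of *Ifi27*, *Ifit1*, *Xaf1*, *Oasl2*, and *Ifit3* were within 3 standard errors of 0, and *Isg15* rested on 79 to 268 counts per library.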
